A study of Mus musculus with 131 samples.

Results

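A set of 9 genes of the Wnt/β-catenin pathway was followed through hepatocyte RNA-Seq, DNA methylation and chromatin data of postnatal mouse liver. They were taken by gene name from the deposited expression table, which lists 24397 genes: *Axin2*, *Lgr5*, *Rnf43*, *Znrf3*, *Tbx3*, *Nkd1*, *Ctnnb1*, *Tcf7l2* and *Apc*. All 9 were found, each in 1 row. Methylation tiles and peaks were taken inside each gene and 5 kb on either side of it, which gave 3631 of the 8235920 tiles of 200 bp listed by whole-genome bisulfite sequencing (WGBS) and 707 of the 913286 tiles of 100 bp listed by reduced representation bisulfite sequencing (RRBS). In the mouse build mm9, *Axin2* (ENSMUSG00000000142.9) lies at chr11:108781663-108812095 on the plus strand, *Lgr5* (ENSMUSG00000020140.9) at chr10:114887370-115024836 on the minus strand, *Rnf43* (ENSMUSG00000034177.8) at chr11:87476589-87549041 on the plus strand and *Znrf3* (ENSMUSG00000041961.7) at chr11:5176332-5344850 on the minus strand. *Tbx3* (ENSMUSG00000018604.11) lies at chr5:120120871-120134733, *Nkd1* (ENSMUSG00000031661.5) at chr8:91045243-91118786, *Ctnnb1* (ENSMUSG00000006932.9) at chr9:120842518-120869625, *Tcf7l2* (ENSMUSG00000024985.11) at chr19:55816300-56008145 and *Apc* (ENSMUSG00000005871.7) at chr18:34380638-34481844, all on the plus strand. The RNA libraries do not mark strand, so reads of *Lgr5* and of RP23-43M12.1, which lies inside it on the other strand, cannot be told apart. The same holds for the start of *Tbx3* and Gm2301, for the start of *Apc* and the pseudogene Gm10548, for the end of *Ctnnb1* and *Ulk4*, for Gm11670 inside *Axin2* and, on the same strand, for 1110028F11Rik inside *Rnf43*.

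All animals were C57Bl mice. RNA-Seq covered hepatocytes of uninjected WT mice at 1 week (1 library), 3 weeks (3) and 15 weeks (3), of 15 week controls labelled WT that had received AAV8-Tbg-Cre at 1 day (3) or 3 weeks (3) after birth, and of 15 week Tet2/Tet3 double knockout (DKO) mice, made by the same injection into Tet2F/Tet3F animals at 1 day (3) or 3 weeks (2). The virus carries Cre under the Tbg promoter, which is active in hepatocytes, so other liver cells of a DKO mouse keep both genes. Hepatocytes had been sorted for the absence of the leukocyte marker CD45. RRBS columns came from WT mice of 3 weeks (2) and from controls injected at 1 day (3) or 3 weeks (3). DKO mice injected at 1 day (2) or 3 weeks (2) were also covered, as were insulin receptor knockout mice (InsR KO, 2). The paper made the InsR KO mice by injecting the same virus into InsRF animals just after birth. They lacked the receptor in hepatocytes only, and were compared at 15 to 20 weeks. The other columns used were cultured hepatocytes of 1 week old mice (2), WT fat of 25 weeks (1) and WT neutrophils of 36 weeks (1). WGBS and histone ChIP-Seq had 1 library per condition, from 15 week WT mice, 15 week DKO mice injected at 1 day and, for WGBS, 1 week old mice. 5-hydroxymethylcytosine was profiled in 1 library of 20 day hepatocytes, and ATAC-Seq and HNF6 ChIP-Seq had 2 WT and 2 DKO libraries labelled as liver. The labels do not say that libraries of a group came from separate animals, although the column names carry different animal numbers, so the p-values measure the spread between these samples only.

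The expression table gives FPKM, a level scaled to the length of the transcript and to the size of the library, so that levels can be compared between genes. Read counts are not given, and the spacing of the smallest values placed the depth of the libraries between 0.986 and 1.39 times that of the 1 week library. *Alb* was listed at 0 in all 18 libraries, while the summed level of 7 hepatocyte markers, *Alb* included, was 15473 to 26901 FPKM. Of these markers *Serpina1a* also had a mean of 0 in every injected group, and *Trf* ranged from 0 to 13382 FPKM. *Xist* was above 1 FPKM in the 3 WT libraries of 3 weeks and in 1 control injected at 3 weeks, replicate 3, so age and sex cannot be told apart in the comparison of 15 with 3 weeks, and results that rest on that control are given with and without it. The table gives no value for the deleted part of *Tet2* and *Tet3* alone, so it does not check the deletion, and the whole-gene levels went different ways at the 2 injection times. *Tet2* was at 2.82 to 4.08 FPKM in DKO injected at 1 day against 0.890 to 2.13 in their controls, and *Tet3* at 1.74 to 2.78 against 1.68 to 2.55. In DKO injected at 3 weeks both were lower without overlap, *Tet2* at 0.824 and 1.84 FPKM against 2.08 to 2.99 and *Tet3* at 1.56 and 1.67 against 2.44 to 2.89.

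Wnt ligands act through Frizzled and LRP receptors to stop the destruction of β-catenin, the product of *Ctnnb1*, by a complex built on AXIN and APC proteins. Stable β-catenin enters the nucleus and works with TCF/LEF factors such as TCF7L2 at target genes. Several targets feed back on the pathway: AXIN2 rebuilds the destruction complex, the ubiquitin ligases RNF43 and ZNRF3 remove Frizzled from the cell surface, NKD1 acts on Dishevelled, and LGR5 binds R-spondins, which block RNF43 and ZNRF3. In the liver the pathway is known for setting zonation, with high activity in hepatocytes around the central vein, where *Axin2*, *Lgr5* and *Tbx3* are used as markers.

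The sequences of 5 tiles are shown because the methylation differences described for these genes sit in them. The *Axin2* tile covers RRBS tiles called higher in DKO mice, the *Lgr5*, *Znrf3* and *Tcf7l2* tiles had the largest fall of their gene from newborn to adult WGBS, and the *Tbx3* tile lies upstream of its start and was higher in DKO. They were read from the plus strand of mm9 5′ to 3′, with CpG dinucleotides in capitals.
Axin2 intron, chr11:108797801-108798000: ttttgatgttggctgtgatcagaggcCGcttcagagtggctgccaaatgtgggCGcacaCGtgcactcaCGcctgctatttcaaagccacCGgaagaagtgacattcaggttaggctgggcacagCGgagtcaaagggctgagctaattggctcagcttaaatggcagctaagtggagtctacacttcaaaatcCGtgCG
Lgr5 intron, chr10:115018201-115018400: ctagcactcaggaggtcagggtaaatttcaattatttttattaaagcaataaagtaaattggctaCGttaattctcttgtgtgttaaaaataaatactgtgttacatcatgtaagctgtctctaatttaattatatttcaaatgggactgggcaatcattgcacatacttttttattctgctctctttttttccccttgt
Znrf3 intron, chr11:5226401-5226600: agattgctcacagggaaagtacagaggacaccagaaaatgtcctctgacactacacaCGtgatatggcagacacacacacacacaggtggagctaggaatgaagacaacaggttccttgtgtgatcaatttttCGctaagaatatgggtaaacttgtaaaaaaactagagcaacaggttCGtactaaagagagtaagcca
Tcf7l2 intron, chr19:55926401-55926600: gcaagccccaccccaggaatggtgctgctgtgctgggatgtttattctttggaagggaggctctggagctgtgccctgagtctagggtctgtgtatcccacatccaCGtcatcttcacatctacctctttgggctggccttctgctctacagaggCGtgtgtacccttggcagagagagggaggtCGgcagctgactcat
Tbx3 upstream, chr5:120119201-120119400: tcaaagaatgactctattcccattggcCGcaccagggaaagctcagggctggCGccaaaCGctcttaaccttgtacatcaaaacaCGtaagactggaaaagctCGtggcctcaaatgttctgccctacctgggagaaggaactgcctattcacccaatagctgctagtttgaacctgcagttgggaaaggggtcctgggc
These tiles held 8 CpGs in *Axin2*, 1 in *Lgr5*, 3 in *Znrf3*, 3 in *Tcf7l2* and 5 in *Tbx3*. The letters CTTTGA, the core that TCF/LEF factors are known to read, occurred on either strand 2 times in the *Axin2* tile, 1 time in the *Tbx3* tile and not in the other 3. Of all tiles of the WGBS table, 14.8% held this motif.

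Among the members, *Ctnnb1* had by far the highest level, with a median over the 18 libraries of 43.3 FPKM and a range of 30.4 to 56.8. *Rnf43* followed with a median of 4.34 FPKM, then *Tcf7l2* with 3.25, *Apc* with 2.65, *Tbx3* with 2.54, *Znrf3* with 1.78, *Lgr5* with 1.22, *Axin2* with 0.908 and *Nkd1* with 0.214. Below *Ctnnb1* the ranges of neighbours in this order overlapped. They were wide for the feedback and target genes, from 0.126 to 6.35 FPKM for *Axin2*, from 0.0441 to 4.34 for *Lgr5* and from 0.173 to 14.6 for *Tbx3*, and narrow for *Apc*, from 1.69 to 3.34.

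**Figure D1:**
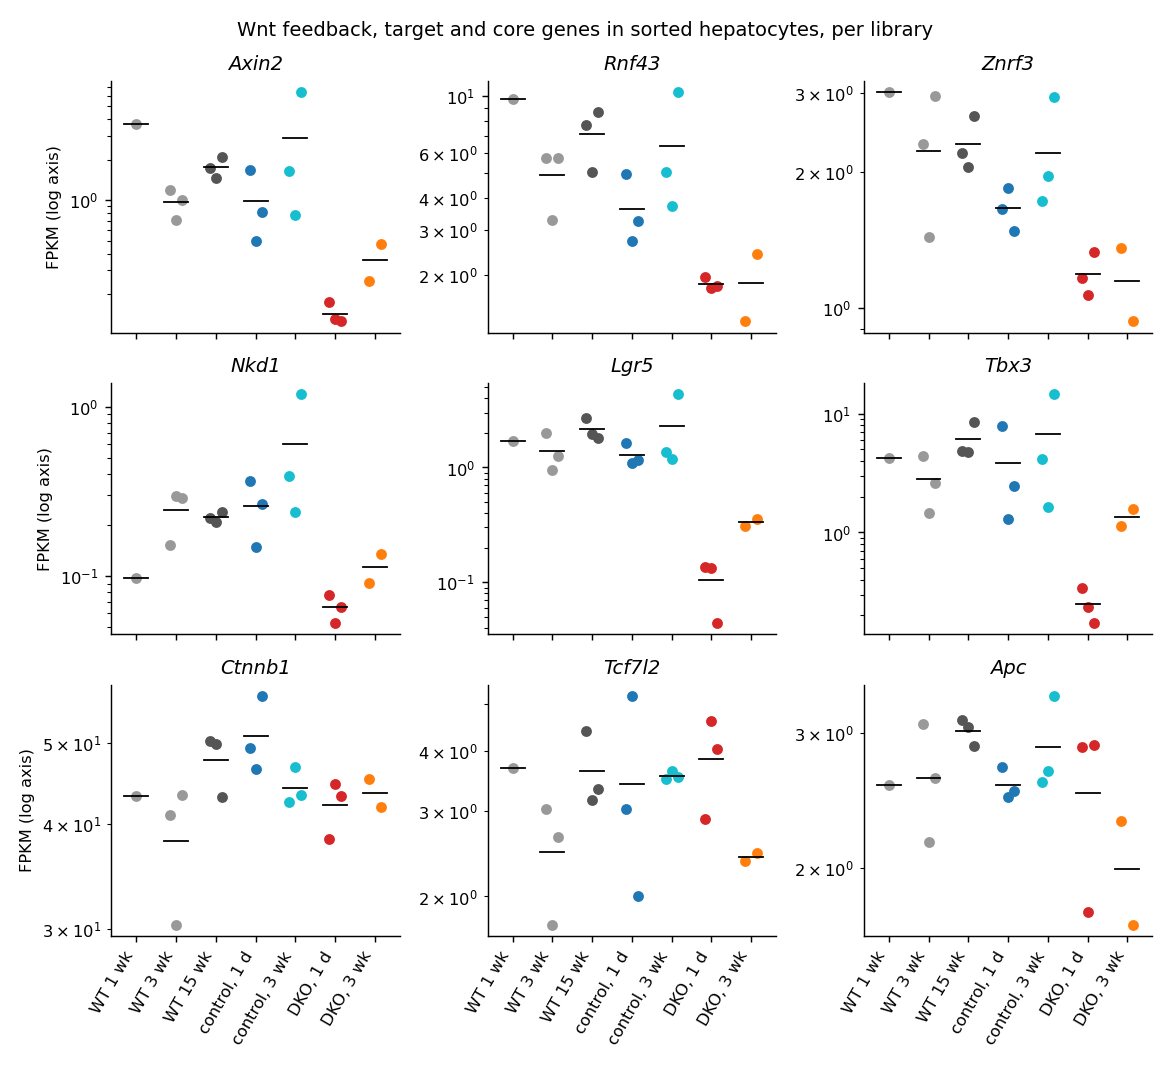
RNA level of each of the 9 members (FPKM, log axis) in the 18 libraries, 1 point per library, grouped by age, injection and genotype. The DKO libraries of *Axin2*, *Lgr5*, *Rnf43*, *Znrf3*, *Tbx3* and *Nkd1* lie below all controls of the same injection time, and *Ctnnb1* stays between 30.4 and 56.8 FPKM.

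The first question was whether these genes differed in adult hepatocytes in which *Tet2* and *Tet3* had been deleted from the first day of life. *Lgr5* and *Tbx3*, both perivenous targets, fell, and the 4 feedback genes *Axin2*, *Rnf43*, *Znrf3* and *Nkd1* were lower in every DKO library without passing the threshold or the filter. *Lgr5*, the R-spondin receptor, had 1.62, 1.09 and 1.15 FPKM in the controls and 0.135, 0.133 and 0.0441 in the DKO libraries. The groups were far apart, the mean being 12.4 times higher in the controls (difference in log2(FPKM + 1) -1.04 ± 0.26 SE, limma adjusted p = 0.0158). *Tbx3*, a T-box transcription factor, had 7.81, 1.30 and 2.46 FPKM in the controls and 0.342, 0.237 and 0.173 in the DKO libraries. Its controls spread widely, but the lowest of them was above the highest DKO library, and the means differed 15.4 times (-1.72 ± 0.56, limma adjusted p = 0.0456). On this scale the pseudocount of 1 FPKM understates the change of genes at such low levels.

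Of the feedback genes, *Axin2* had 1.67, 0.499 and 0.817 FPKM in the controls against 0.174, 0.129 and 0.126 in the DKO libraries. The mean was 6.95 times higher in the controls, with no overlap, and the difference of -0.76 ± 0.37 had an adjusted p of 0.161 in limma. With a pseudocount of 0.1 FPKM it was -2.03 with an adjusted p of 0.0226. *Rnf43* had 4.94, 2.71 and 3.26 FPKM in the controls and 1.97, 1.78 and 1.82 in the DKO libraries (-0.67 ± 0.30, limma adjusted p = 0.132). *Znrf3*, which codes for the related ligase, had 1.66, 1.84 and 1.48 FPKM against 1.16, 1.07 and 1.33 (-0.28 ± 0.17, limma adjusted p = 0.251). Both ligases were thus lower in each DKO library, *Rnf43* by a ratio of means of 1.96 and *Znrf3* by 1.40. *Nkd1*, the Dishevelled antagonist, was below the filter of a mean of 1 FPKM in every condition and was not tested: it had 0.364, 0.148 and 0.265 FPKM in the controls and 0.0775, 0.0526 and 0.0652 in the DKO libraries.

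The genes of the core machinery differed less. *Ctnnb1* had 49.3, 46.6 and 56.8 FPKM in the controls and 38.4, 44.7 and 43.3 in the DKO libraries, a ratio of means of 1.21 with no overlap (-0.27 ± 0.13, limma adjusted p = 0.165). *Tcf7l2*, the TCF factor, overlapped between groups, with 3.03, 5.18 and 2.00 FPKM in the controls and 2.88, 4.59 and 4.03 in the DKO libraries (0.18, 95% interval -0.30 to 0.66, limma adjusted p = 0.608). *Apc* overlapped too, with 2.70, 2.47 and 2.52 against 2.88, 1.76 and 2.89 FPKM (-0.04, 95% interval -0.34 to 0.26, limma adjusted p = 0.877). These intervals still allow differences of the size seen in *Znrf3*.

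Of the 8 members tested, 2 were lower and 0 higher after deletion from 1 day, beside 15.6% of all 11166 genes tested called lower and 4.33% called higher, and 3 members were under an unadjusted p of 0.05. Every DKO library lay below every control for 7 of the 9 members, as it did for 29.2% of all genes. Against uninjected 15 week WT in place of the injected controls, 5 members were called lower, *Axin2* (-1.27, limma adjusted p = 0.0262), *Rnf43* and *Znrf3* in addition to *Lgr5* and *Tbx3*. *Axin2* was also called when the control of 3 weeks that expresses *Xist* was taken out of the fit, with the same difference of -0.76 (limma adjusted p = 0.0163). The call for *Lgr5* was lost without DKO replicate 3 (adjusted p = 0.0506) or control replicate 1 (0.0549). That for *Tbx3* was lost in 5 of the 6 fits that left out 1 library, with limma adjusted p-values of 0.0809 to 0.168.

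In these bulk samples a smaller share of perivenous cells and less RNA per cell cannot be told apart. Sums of markers of other cells were also lower in these DKO libraries, some with overlap. The summed level of 7 Kupffer cell and leukocyte markers (of 8 listed) was 1.43 to 2.72 FPKM in the DKO libraries against 3.59 to 6.11 in the controls. *Cd3e* and *Cd79a* had a mean of 0 in the DKO libraries, but were also near 0 in the controls (0.00861 and 0.00935 FPKM). The sum of 6 endothelial markers was 2.24 to 3.59 against 2.95 to 4.39, and that of 6 stellate cell markers 3.42 to 5.18 against 3.67 to 17.6. The stellate cell sums came mostly from *Dcn* (means 3.40 and 7.99 FPKM). Some single markers were higher in the DKO libraries, among them the endothelial *Lyve1* (mean 0.546 against 0.263 FPKM) and the stellate cell marker *Pdgfrb* (0.161 against 0.114). The sum of 5 cholangiocyte markers was 6.62 to 11.1 against 11.0 to 19.3. The cholangiocyte sums came nearly all from *Spp1* (means 8.23 and 13.9 FPKM). The 5 erythroid markers summed to 12.0 to 15.2 against 52.7 to 70.6, nearly all from *Alas2* (means 12.6 and 58.3 FPKM). *Lgr5*, *Tbx3* and *Axin2* were lower in the same libraries as these sums, and the part of other cells in their levels was not tested.

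The same genes were compared in mice deleted from 3 weeks. *Lgr5* and *Rnf43* fell, and *Axin2*, *Znrf3*, *Tbx3* and *Nkd1* were again lower in both DKO libraries than in the 3 controls. *Lgr5* had 1.37, 1.18 and 4.34 FPKM in the controls and 0.311 and 0.353 in the DKO libraries (-1.18 ± 0.30, limma adjusted p = 0.0381). *Rnf43* had 5.04, 3.73 and 10.3 FPKM against 1.32 and 2.42 (-1.29 ± 0.34, limma adjusted p = 0.0443). In both genes the highest value was that of control replicate 3, the library that expresses *Xist*. Without it *Lgr5* was at -0.77 with a limma adjusted p of 0.0334, and *Rnf43* at -0.92 with 0.106.

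*Axin2* showed the same high control, with 1.64, 0.779 and 6.35 FPKM in the controls and 0.249 and 0.470 in the DKO libraries. The ratio of means was 8.14 and the difference -1.27 ± 0.41 (limma adjusted p = 0.083), and -0.68 with 0.137 without that control. *Tbx3* had 4.14, 1.65 and 14.6 FPKM against 1.13 and 1.56, so that control replicate 2 lay close to the DKO libraries (-1.35 ± 0.63, limma adjusted p = 0.194). *Znrf3* had 1.73, 1.96 and 2.94 FPKM against 1.36 and 0.935 (-0.57 ± 0.19, limma adjusted p = 0.0864). *Nkd1*, not tested, had 0.390, 0.239 and 1.18 FPKM against 0.0912 and 0.134. In all 6 genes the control that expresses *Xist* was the highest of the 3.

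The *Ctnnb1* values overlapped, with 42.5, 46.8 and 43.3 FPKM in the controls and 45.2 and 41.9 in the DKO libraries (-0.02, 95% interval -0.33 to 0.29, limma adjusted p = 0.955). *Tcf7l2* had 3.49, 3.64 and 3.52 FPKM against 2.36 and 2.46, with no overlap (-0.42 ± 0.25, limma adjusted p = 0.308), and *Apc* had 2.59, 2.68 and 3.34 against 2.31 and 1.69 (-0.37 ± 0.16, limma adjusted p = 0.158). In all, 2 of the 8 tested members were lower and 0 higher, beside 4.34% and 0.905% of all genes, and 6 were under an unadjusted p of 0.05. Every DKO library lay below every control for 8 of the 9 members and for 32.4% of all genes. With 1 of the 2 DKO libraries left out, 0 members were called. Summed endothelial markers were 4.19 to 8.67 FPKM in the DKO libraries and 2.48 to 5.04 in the controls, and erythroid markers 12.0 to 18.2 and 5.40 to 47.9. Kupffer cell and leukocyte markers were at 4.88 to 9.60 in the DKO libraries and 1.46 to 6.58 in the controls, stellate cell markers at 7.72 to 32.4 and 5.71 to 24.4, and cholangiocyte markers at 5.38 to 6.89 and 5.98 to 12.7. The part of these cells in the members' levels was not tested.

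**Figure D2:**
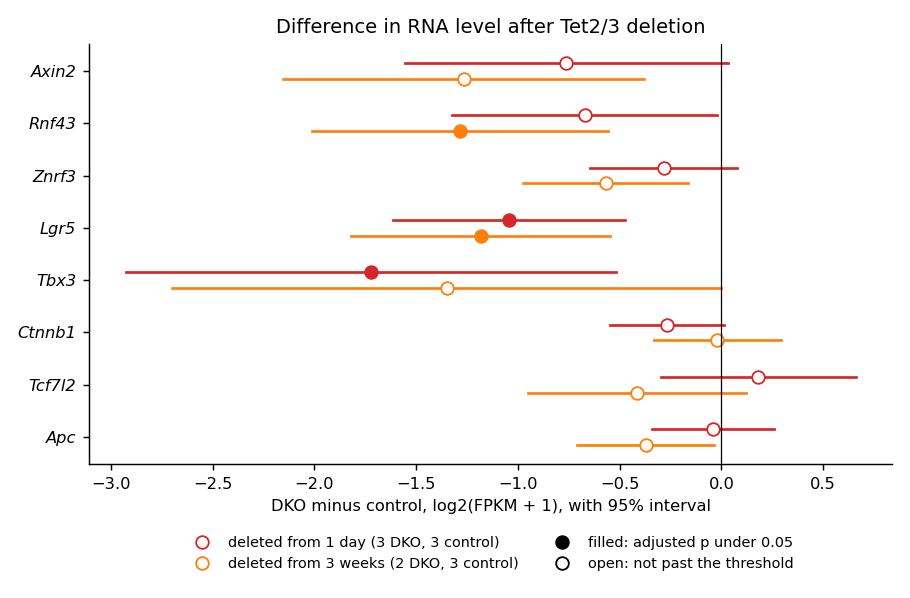
Difference between DKO and control libraries in log2(FPKM + 1) for the 8 tested members, with 95% intervals, for deletion from 1 day (3 DKO, 3 controls) and from 3 weeks (2 DKO, 3 controls). Filled points are under a limma adjusted p of 0.05, which *Lgr5* reached at both times, *Tbx3* from 1 day and *Rnf43* from 3 weeks.

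Whether the effect of the deletion differed between the 2 injection times was tested as an interaction in the same fit. Of the 8 members, 0 passed in limma and 0 were under an unadjusted p of 0.05, beside 2.33% of all genes with a higher and 3.04% with a lower difference after injection at 1 day. The largest interaction was that of *Rnf43* (0.61, 95% interval -0.36 to 1.59, limma adjusted p = 0.382), followed by *Tcf7l2* (0.60, -0.12 to 1.32, 0.244). The values of *Axin2* (0.50, -0.69 to 1.69), *Apc* (0.33, -0.12 to 0.78), *Znrf3* (0.28, -0.26 to 0.83) and *Ctnnb1* (-0.24, -0.66 to 0.18) had intervals that included 0. For *Lgr5* it was 0.14 (-0.72 to 0.99) and for *Tbx3* -0.37 (-2.18 to 1.44), wide intervals that leave the size of a difference between the times uncertain. A gene called at 1 time only was therefore not shown to differ between the times.

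Other genes of the pathway were taken from fixed lists. Known β-catenin targets of perivenous hepatocytes, the members left out, moved most. After deletion from 1 day 10 of 12 were lower and 0 higher, beside 15.6% and 4.33% of all genes. Their median difference was -2.68 against -0.11 for all genes. *Oat*, the ornithine aminotransferase, was at 226 FPKM in the controls and 13.2 in the DKO libraries (-3.91, limma adjusted p = 3.62e-05), *Cyp2e1*, a cytochrome P450 of xenobiotic metabolism, at 2059 and 162, *Glul*, the glutamine synthetase, at 149 and 11.0, and *Lhpp* at 17.1 and 0.609. After deletion from 3 weeks 4 of the 12 were lower and 0 higher, beside 4.34% and 0.905% of all genes, with a median of -1.22. The 4 were *Glul* (266 and 31.6 FPKM), the dicarboxylate transporter *Slc13a3* (9.45 and 0.714), *Oat* (356 and 75.6) and *Cyp1a2* (351 and 150). Without the control that expresses *Xist*, 2 of 12 were lower at 3 weeks, with a median of -0.63, and 11 of 12 at 1 day. Of 11 genes of periportal hepatocytes, the opposite zone, 2 were higher and 0 lower after deletion from 1 day. The 2 were *Cdh1* (29.8 and 67.4 FPKM) and *Hsd17b13* (363 and 598). The median difference of the 11 was -0.15, against -0.11 for all genes. *Hsd17b13* was the 1 periportal gene called higher from 3 weeks (297 and 518 FPKM), and without the *Xist* library 0 were called. The periportal median from 3 weeks was 0.49, against -0.07 for all genes, and 0.31 without that library.

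The counts of the other lists stand beside 4.33% of all genes called higher and 15.6% called lower after deletion from 1 day. Of 23 ligands and R-spondins 1 passed the filter, *Wnt5b*, which was higher after deletion from 1 day (1.78 FPKM in controls, 2.64 in DKO, limma adjusted p = 0.0457). Of 10 receptors tested, *Ryk* was lower (6.10 and 4.62 FPKM). Among 3 tested inhibitors *Notum*, a secreted enzyme that inactivates Wnt proteins and is itself a target of the pathway, fell from 12.4 to 2.90 FPKM (-1.81, limma adjusted p = 0.0032). Of 14 genes of the destruction complex and Dishevelled, the scaffold *Axin1* (4.94 and 3.44 FPKM) and the kinase *Csnk1e* (1.08 and 0.406) were lower, and of 13 nuclear partners the corepressors *Tle3* (3.01 and 1.82 FPKM) and *Tle4* (3.30 and 1.46) were lower and *Tle2* (4.52 and 8.64) higher. *Myc*, among 5 general targets tested, was higher, at 4.84 FPKM in the controls and 36.0 in the DKO libraries (2.80, limma adjusted p = 0.00579). After deletion from 3 weeks *Tle3* was lower (2.59 and 0.854 FPKM), beside 4.34% of all genes called lower and 0.905% called higher. The other genes of these 6 lists did not pass the threshold.

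The levels of 5 feedback and target genes followed each other across the libraries. Over all 18, which share depth and conditions, the 10 pairs among *Axin2*, *Lgr5*, *Rnf43*, *Znrf3* and *Tbx3* had Pearson correlations of log2(FPKM + 1) from 0.726 to 0.929. Their correlations with *Ctnnb1* and *Tcf7l2* were -0.00538 to 0.224, and those with *Apc* 0.530 to 0.644. *Nkd1*, at lower levels, had correlations with the 5 from 0.463 (*Znrf3*) to 0.730 (*Axin2*). Among all tested genes, the most like *Axin2* was *Rnf43* (0.929), before *Acot5* (0.918) and AW549542 (0.914). The most like *Lgr5* were AW549542 (0.935), *Tbx3* (0.921) and *Usp46* (0.908), and the most like *Tbx3* were *Lgr5* (0.921), *Axin2* (0.909) and *Cldn2* (0.897).

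With age no member passed the test. Between 3 and 15 weeks 0 of 8 were called in limma and 1, *Ctnnb1*, was under an unadjusted p of 0.05, beside 24.0% of all genes called higher and 9.32% lower. *Ctnnb1* had 41.0, 30.4 and 43.4 FPKM at 3 weeks and 50.3, 49.8 and 43.1 at 15 weeks (0.33 ± 0.13, limma adjusted p = 0.0692). *Tbx3* had 4.42, 1.47 and 2.63 FPKM at 3 weeks and 4.89, 4.78 and 8.58 at 15 weeks (0.92 ± 0.56, limma adjusted p = 0.231), and *Axin2* had 1.19, 0.717 and 1.00 and then 1.75, 1.46 and 2.10 (0.49 ± 0.37, limma adjusted p = 0.332). These 2 genes and *Tcf7l2* (0.42 ± 0.22) were higher in each 15 week library than in each 3 week library, by differences that did not pass the test. *Lgr5* (0.41), *Rnf43* (0.46), *Apc* (0.16), *Znrf3* (0.06) and *Nkd1*, with mean levels of 0.246 and 0.222 FPKM, overlapped between the ages. In the same comparison 8 of the 12 perivenous targets were higher and 1 lower, among them *Oat* (43.5 FPKM at 3 and 379 at 15 weeks), the glutamate transporter *Slc1a2* (3.81 and 26.8) and *Lhpp* (5.86 and 30.4), with *Slc13a3* as the lower one (39.0 and 4.64). The kinases *Gsk3b* (2.59 and 4.39 FPKM) and *Gsk3a* (9.33 and 12.6) and the tankyrases *Tnks2* (6.84 and 9.99) and *Tnks* (2.11 and 3.35), which act on the destruction complex, were higher at 15 weeks, as 4 of 14 genes of their list, with 1 lower. *Fzd5* (0.710 and 1.56 FPKM), *Kremen1*, *Tle3*, *Tnfrsf19* and the periportal *Cyp2f2* (211 and 622) were higher, and *Fzd8* (12.1 and 4.45), *Wif1*, *Wnt5b* and *Hsd17b13* lower.

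The 1 week library had 3.71 FPKM of *Axin2*, 9.70 of *Rnf43* and 3.00 of *Znrf3*, each above all 3 libraries of 15 weeks, and 1.71 of *Lgr5*, 4.22 of *Tbx3* and 0.0969 of *Nkd1*, each below them. *Apc* was also below them, by 0.12 to 0.20 in log2(FPKM + 1), while *Ctnnb1* (mean difference 0.14) and *Tcf7l2* (-0.02) lay within their range. With 1 library there is no test, and a gene was counted when all 3 libraries of 15 weeks differed from it by at least 1 log2 unit in the same direction. Of the members 0 did so, beside 5.74% of all genes higher and 8.62% lower at 15 weeks. Of the perivenous targets 6 of 12 were higher by this rule and 3 lower, and of the periportal genes 6 of 11 were higher and 1 lower. In that library the erythroid markers summed to 1169 FPKM and those of cholangiocytes to 115.7, against 40.3 to 45.7 and 5.42 to 7.46 at 15 weeks. Nearly all of the cholangiocyte sum came from *Spp1*, at 113.6 FPKM.

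WGBS asked how methylation over these genes changed from newborn (1 week) to adult hepatocytes, and what it was in adult DKO hepatocytes. Of the 3587 member tiles with a value in all 3 libraries, 63 fell by at least 35 points, or 1.76% beside 1.63% of all tiles, and 13 rose by as much, beside 0.261%. With 1 library per condition there is no replicate check. The 63 tiles averaged 77.7% methylation in newborn, 24.2% in adult WT and 77.1% in adult DKO hepatocytes. Of them 52 were at least 35 points higher in DKO than in adult WT, beside 70.6% of all fallen tiles. Over all member tiles, whether they fell or not, 155 (4.32%) were at least 35 points higher in DKO, beside 1.98% of all tiles.

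*Tcf7l2* held more of these tiles than any other member. In it 31 of 877 tiles fell, all intronic, and 68 were higher in DKO. Its largest fall was in the tile shown above, from 89.7% in newborn to 0% in adult WT, with 78.2% in DKO. Next came chr19:55901601-55901800, which went from 88.6 to 2.04% and had 82.4% in DKO, and chr19:55926601-55926800, from 95.8 to 14.4% and with 85.2% in DKO. The other 8 genes together had 32 falling tiles of 2710, or 1.18%. *Tcf7l2* is also the longest member, at 191.85 kb. Its RNA level was not called in any comparison, and a link between tile counts and RNA level was not tested.

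*Znrf3* and *Rnf43* came next. In *Znrf3* 10 of 546 tiles fell and 29 were higher in DKO, with the tile shown above at 93.9% in newborn, 2.56% in adult WT and 85.7% in DKO. In *Rnf43* 8 of 341 fell and 26 were higher in DKO. Its largest fall, at chr11:87512401-87512600 in the promoter window of an internal transcript, was from 77.1 to 10.0%, with 59.4% in DKO. The *Rnf43* tile at chr11:87506601-87506800 was already at 30.4% in newborn, reached 0% in adult WT and had 82.5% in DKO, so a tile could be higher in DKO than at both WT ages.

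*Axin2* had 2 falling tiles of 184, but its intron held a block of tiles that were higher in DKO. The tile at chr11:108797801-108798000, 16.2 kb from the start, had 47.3% in newborn, 13.9% in adult WT and 80.4% in DKO. The one before it had 20.4, 11.5 and 67.8%, and the one after it 71.4, 25.7 and 85.0%. A tile at chr11:108809201-108809400 had 45.9, 2.17 and 70.5%. In *Lgr5* 4 of 582 tiles fell, the largest being the tile shown above, 6.54 kb inside the gene, with 81.8, 14.8 and 53.3%.

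*Tbx3* had 0 falling tiles of 113. Of its tiles 4 rose from newborn to adult and 3 were higher in DKO, among them the upstream tile at chr5:120119201-120119400 with 33.0, 27.5 and 68.7%. *Nkd1* had 2 falling tiles and 1 higher in DKO, *Ctnnb1* 2 and 8, and *Apc* 4 and 8. The tile at the UTR of *Ctnnb1* (chr9:120867801-120868000) had 55.9, 13.2 and 77.0%. In *Apc* the largest fall was from 92.6 to 0%, with 61.9% in DKO, at chr18:34398401-34398600. Over all members 58 of the 63 fallen tiles were intronic, 3 in UTRs, 1 in a promoter window and 1 outside the genes. The letters CTTTGA occurred in 11.1% of the fallen tiles, in 17.4% of those higher in DKO and in 15.2% of the other member tiles.

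**Figure D3:**
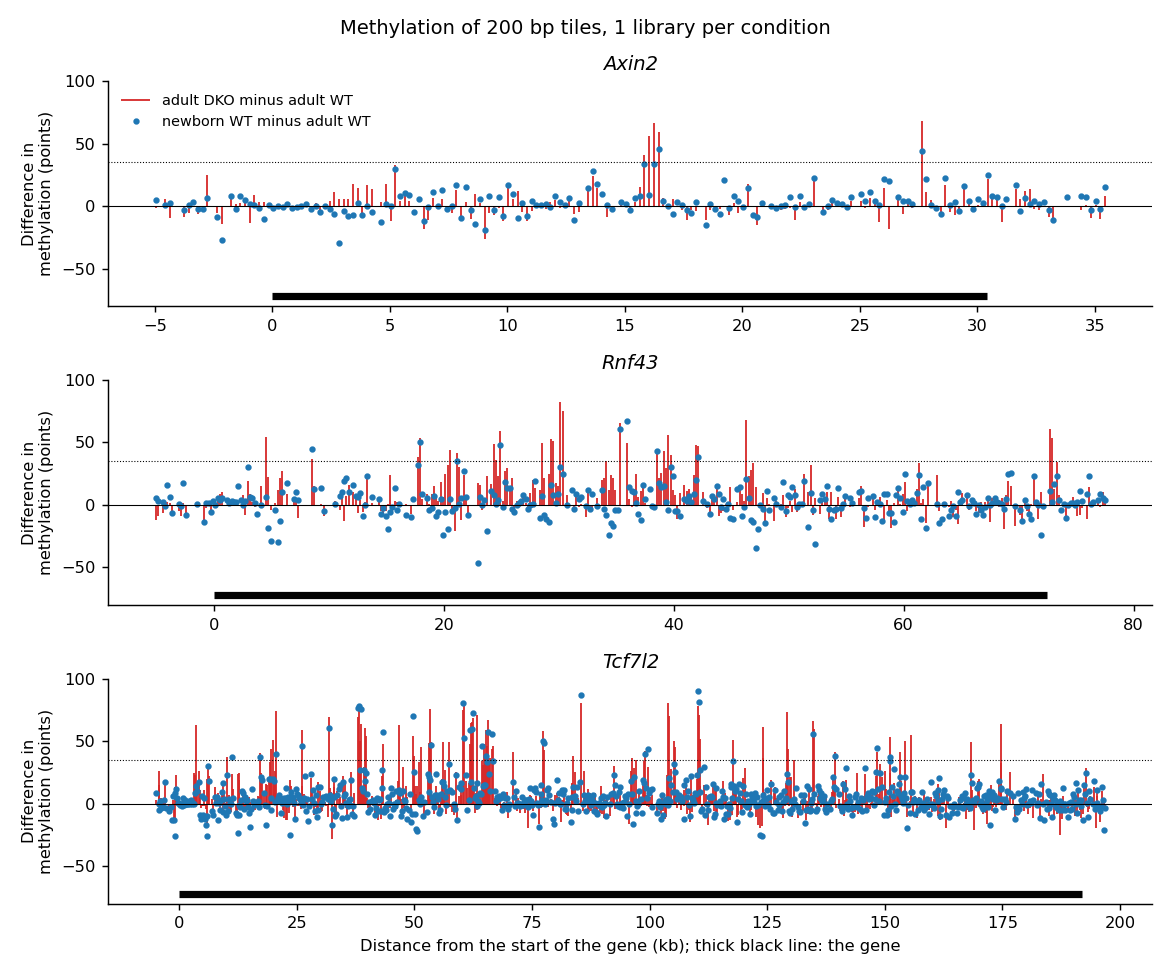
Differences in methylation (percentage points) of 200 bp tiles along *Axin2*, *Rnf43* and *Tcf7l2* by distance from the start of the gene (kb), with 1 library per condition. Blue points give newborn minus adult WT, red lines adult DKO minus adult WT, and the dotted line marks 35 points. The tall red lines of *Axin2* cluster near 16.2 kb from its start, and those of *Tcf7l2* are spread over the gene.

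**Figure D4:**
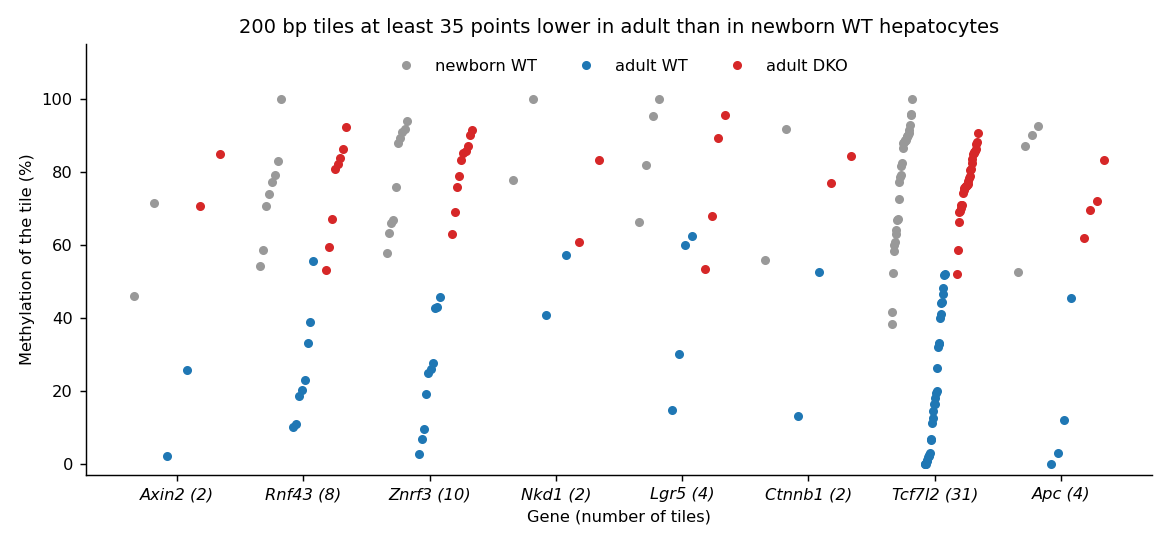
Methylation (%) of the 63 member tiles that fell by at least 35 points from newborn to adult WT, 1 point per tile and library, by gene with the number of tiles in parentheses. Newborn and DKO values are mostly high and adult WT values low, with means of 77.7, 77.1 and 24.2%.

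RRBS gave replicate values for some of the same places. After deletion from 1 day 10 of the 433 member tiles tested were called higher and 0 lower, beside 1.13% and 0.0252% of all tiles, a call being a limma-moderated adjusted p under 0.05 with a difference of at least 35 points. They lay in introns of *Axin2* (3), *Rnf43* (3) and *Tcf7l2* (4). The tile chr11:108797801-108797900 in the *Axin2* block had 1.41, 0 and 3.45% in the controls and 50.0 and 74.6% in the DKO mice (difference 60.7 ± 11.7 points SE, adjusted p = 0.0305). Its neighbour, chr11:108797901-108798000, had 7.34, 7.17 and 3.35% against 64.7 and 73.1% (62.9 ± 8.67, adjusted p = 0.00452). In both tiles every DKO value was above every control. The first call was lost in 4 of 5 fits that left out 1 mouse, with adjusted p-values of 0.0853 to 0.191, all but that without DKO replicate 1, and the second was kept in all 5. The tile chr11:108797001-108797100 had 58.3 and 57.1% in 2 controls, no value in the third, and 100% in both DKO mice (adjusted p = 0.00145), a call that rests on 2 values a group. It lay outside the block, and the WGBS tile over it was only 3.31 points higher in DKO than in adult WT.

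In *Rnf43* the tile chr11:87523401-87523500 had 3.57, 10.0 and 2.27% in the controls and 45.1 and 45.8% in the DKO mice (adjusted p = 0.0238). It was thus low in every control, but with any 1 of the 5 mice left out its adjusted p was 0.0532 to 0.103. The calls of the other *Rnf43* tiles were also lost in each of these fits. In *Tcf7l2* the smallest adjusted p was that of chr19:55872201-55872300, with 0, 0 and 2.90% against 45.2 and 53.1% (0.00019). The other *Tcf7l2* tiles were chr19:55819901-55820000, with 0% in 3 controls against 60.8 and 77.8%, chr19:55881401-55881500, with 0% against 45.0 and 60.5%, and chr19:55881701-55881800, with 14.8, 0 and 2.88% against 50.5 and 72.1%. With any 1 mouse left out the calls of chr19:55819901-55820000 and chr19:55881701-55881800 were kept, and that of chr19:55881401-55881500 was lost, with adjusted p-values of 0.0576 to 0.144.

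No tile of the other 6 genes was called after deletion from 1 day. The largest difference of *Tbx3* was 2.12 kb upstream, at chr5:120118701-120118800, with 37.9, 22.6 and 16.2% in the controls and 69.0 and 85.7% in the DKO mice (51.8 points, adjusted p = 0.131). That of *Lgr5*, in its promoter window at chr10:115025201-115025300, went the other way, with 41.7, 28.6 and 14.3% in the controls and 0% in both DKO mice (adjusted p = 0.165). This *Lgr5* tile was also at 0% in both 3 week WT mice and in all 3 controls injected at 3 weeks. The 1 DKO mouse of that injection time with a value had 42.9%. *Ctnnb1* had a tile at 44.7 points (adjusted p = 0.129) downstream and *Nkd1* one at 38.7 points (0.72). *Znrf3*, which had 29 WGBS tiles higher in DKO, had 26 RRBS tiles tested, with 1 under an unadjusted p of 0.05. Its largest difference was -6.19 points.

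After deletion from 3 weeks 0 of 375 member tiles were called, with 17 under an unadjusted p of 0.05, beside 0.297% of all tiles called higher and 0.0172% lower. The *Axin2* tile chr11:108797801-108797900 had 3.12, 0 and 21.1% in the controls and 7.14 and 33.3% in the DKO mice, with overlap. Its neighbour had 16.4, 10.1 and 6.67% against 11.3 and 26.4%, also with overlap. The *Tcf7l2* tile chr19:55872201-55872300 had 0.781, 1.13 and 0% against 18.1 and 16.2%, and chr19:55881701-55881800 had 0, 1.64 and 5.56% against 21.0 and 37.2%, both without overlap. The *Rnf43* tile chr11:87523401-87523500 had 12.5 and 2.50% in 2 controls against 25.0 and 12.5%. In *Tcf7l2* 1 control alone had a value, 0%, at chr19:55819901-55820000, against 35.1 and 33.3%, and at chr19:55881401-55881500, against 21.4 and 37.5%. The *Axin2* tile chr11:108797001-108797100 had no DKO value. The difference between the injection times was not tested for these tiles.

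**Figure D5:**
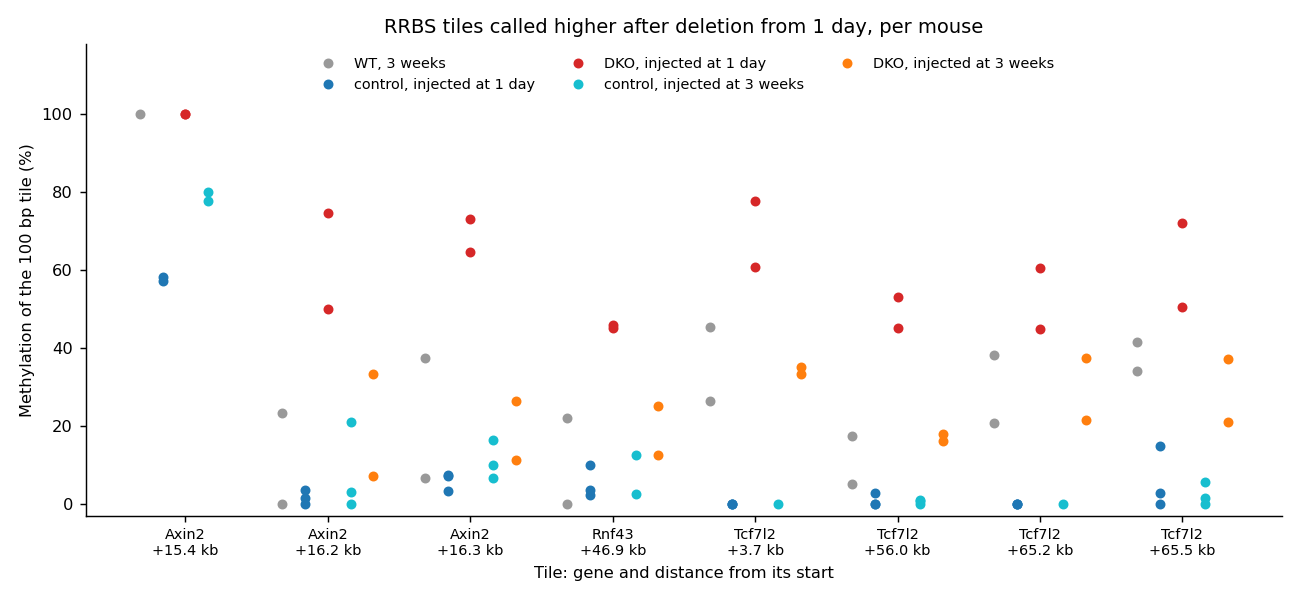
Methylation (%) of 8 of the 10 RRBS tiles called higher after deletion from 1 day, 1 point per mouse, by gene and distance from its start, for 3 week WT and for control and DKO mice of both injection times. DKO mice injected at 1 day lie at 45.0% or above in every tile, above all their controls.

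Between 3 week WT and the 15 week controls of both injection times 0 of 377 member tiles were called, with 16 under an unadjusted p of 0.05, beside 0.0363% of all tiles higher and 0.287% lower in the controls. By animal number both 3 week mice were among those whose RNA expressed *Xist*, as was 1 control injected at 3 weeks. Age, sex and injection therefore cannot be told apart in this comparison. At 3 weeks the *Tcf7l2* tiles named above had 41.5 and 34.0% at chr19:55881701-55881800 and 26.3 and 45.5% at chr19:55819901-55820000. The tile chr19:55881401-55881500 had 38.2 and 20.8%, and chr19:55872201-55872300 had 5.06 and 17.4%. In InsR KO mice 1 of 279 tiles was called, in an intron of *Znrf3* at chr11:5262901-5263000, beside 0.163% of all tiles higher and 0.276% lower. It had 97.0, 86.5 and 95.7% in the controls injected at 1 day and 58.3 and 35.5% in the InsR KO mice (adjusted p = 0.00354), and 93.2 to 98.6% in WT, in DKO mice and in controls injected at 3 weeks. Without InsR KO replicate 2 the difference was -34.7 points and it was not called. Hepatocytes kept in culture had 53.8 and 54.3% in the *Axin2* tile chr11:108797801-108797900, where fat had 39.3% and neutrophils 82.8%.

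Histone marks were compared between 1 WT and 1 DKO library. H3K4me1, which marks enhancers, was called in WT and not in DKO in 29 of 98 WT peaks of the members, beside 20.6% of all WT peaks. They included 3 of 4 peaks of *Axin2*, 5 of 7 of *Lgr5*, 5 of 6 of *Tbx3*, 4 of 12 of *Rnf43*, 4 of 25 of *Znrf3* and 8 of 32 of *Tcf7l2*, and none of the 12 of *Nkd1*, *Ctnnb1* and *Apc*. The *Axin2* peak at chr11:108796368-108798963, with a normalised tag count of 56.5, covered the block of tiles described above, and that at chr11:108808572-108810076, with 18.9, covered the tile near the end of the gene. In *Lgr5* the peak chr10:115016608-115019085 (46.8 tags) covered the tile shown above, and in *Tbx3* the peak chr5:120123806-120127032 had 65.4 tags. With 1 library per condition these are single observations.

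The third lost *Axin2* peak, chr11:108780932-108781609 with 7.70 tags, lay in its promoter window, while the peak chr11:108782804-108786584 inside the gene (85.9 tags in WT) met a DKO peak. The peaks over the starts of *Lgr5* (chr10:115023093-115025386, 52.1 tags) and *Tbx3* (chr5:120118585-120121976, 58.6) met DKO peaks too. Of 88 DKO peaks 17 had no WT peak, beside 27.4% of all DKO peaks, and none of these was at *Axin2*, *Lgr5*, *Tbx3*, *Nkd1* or *Ctnnb1*. H3K27ac, which marks active elements, was lost in 25 of 60 WT peaks of the members beside 34.5% of all, and was seen in DKO only in 17 of 52 beside 40.6%. The intronic *Axin2* peak chr11:108797896-108798651 (12.0 tags) was among those lost. At *Tbx3* a single WT peak, chr5:120118811-120126299, had 287.7 tags, and in its place the DKO library had 3 shorter ones with 75.2, 6.53 and 12.0 tags, of which the first covered the start of the gene.

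Accessible sites differed little in number. In ATAC-Seq 1 of the 24 peaks present in both WT libraries was absent from both DKO libraries, at *Nkd1* with 4.06 tags, beside 7.36% of all, and 1 of 25 was gained, at *Tcf7l2*, beside 9.40%. For HNF6, a hepatocyte transcription factor, 1 of 5 was lost, at *Apc*, beside 5.01%, and 2 of 8 were gained, at *Rnf43* and *Tcf7l2*, beside 31.8%. With 2 libraries a group an exact permutation test cannot reach a p of 0.05, so these are counts only. In 20 day hepatocytes 130 peaks of 5-hydroxymethylcytosine, the product of TET enzymes, lay at the members, 42 of them in *Tcf7l2*, 19 each in *Lgr5*, *Rnf43* and *Znrf3*, 10 in *Apc*, 8 in *Axin2*, 6 in *Tbx3*, 4 in *Nkd1* and 3 in *Ctnnb1*. None of the *Axin2* peaks lay over the block of tiles in its intron. Of the 63 fallen tiles 71.4% lay under a WT H3K4me1 peak, 33.3% under a WT H3K27ac peak and 20 of 63 under a 5hmC peak, beside 26.9, 10.8 and 12.9% of the other 3524 member tiles. Of the 45 fallen tiles under H3K4me1, 27 were in *Tcf7l2*.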

How the data were processed

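The authors trimmed RNA-Seq reads with cutadapt, aligned them with TopHat2, and deposited FPKM values from Cufflinks for 24397 genes. WGBS and RRBS reads were aligned to mm9 with BSMAP (version 2.74 in the submitters' processing notes), and the authors deposited the methylated fraction per 200 bp and 100 bp tile above a coverage minimum. Coverage is not in these tables. The depth behind a tile is therefore unknown, and no interval was computed. Fractions were multiplied to percent. Peaks were called by the authors with HOMER in each library, and the deposited peak score and tag signal, scaled to a common library total, were used. Library totals were 13.4 to 90.2 M tags.

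Genes reaching a mean of 1 FPKM in any condition (11166) entered a single limma model (3.58.1, R 4.3.3) of log2(FPKM + 1) over the 18 libraries, using eBayes with a trend, and two-sided p-values were adjusted by Benjamini-Hochberg. The study's CuffDiff test needs reads and was not run. RRBS tiles with at least 2 values a condition were fitted with 1 mean per condition and a variance moderated as in limma, and called at an adjusted p under 0.05 and 35 points. WGBS tiles were called at 35 points. A peak was lost when present in every WT library and overlapped in no DKO library. Promoters run from 1000 bp before to 100 bp after a transcript start. Sequences came from the mm9 genome. The fits were tested on simulated data.

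The members, the gene lists and the tests were chosen with earlier results of these data known. All members are named in each RNA comparison, with up to 4 genes a list by size among those called, the 3 genes most like *Axin2*, *Lgr5* and *Tbx3*, and up to 3 called tiles a gene. Exceptions, chosen after their values were seen, are the adjacent *Axin2* tiles, the *Rnf43* and *Tbx3* tiles that did not fall, the additional *Tcf7l2* tile and the peaks named. RRBS columns named only by an animal number took the condition of the RNA column with that number. In all, 49 columns that matched no single condition were not used. A marker gene, a sequence and the values of its tiles are not reported here.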

Additional observations from a re-analysis of the deposited data

Results flagged for a closer look

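The effect of the deletion differed between the 2 injection times, by the interaction term of limma, in 6 genes of the pathway lists. They were 1 of 1 tested ligand, 1 of 13 nuclear partners, 1 of 5 general targets and 3 of 12 perivenous targets. It differed in 0 of the 8 tested members, beside 2.33% of all genes with a higher and 3.04% with a lower difference. Relative to deletion from 3 weeks, the difference between DKO and control after deletion from 1 day was higher for the ligand *Wnt5b* (0.86, adjusted p = 0.0322), for *Bcl9l*, a nuclear partner of β-catenin (1.18, 0.0455), and for *Myc* (4.57, 0.0223). It was lower for 3 perivenous targets, *Cyp2e1* (-3.33, adjusted p = 0.00804), *Aldh3a2* (-2.03, 0.0358) and *Lect2* (-1.85, 0.0481). Without the control that expresses *Xist*, 6 of the 12 perivenous targets had a lower interaction, and the 1 tested ligand and 2 of the 5 general targets a higher one. The call of *Bcl9l* was lost, with 0 of 13 nuclear partners called.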

How the results depend on the processing

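The members' RNA calls were few and sensitive. After deletion from 1 day, where 2 members were called, 1 was called when every gene above 0 FPKM was kept and 5 against uninjected WT, and 0 to 2 with 1 library left out. After deletion from 3 weeks, also with 2, the count was 0 with every gene kept, 1 after quantile normalization, 1 without the *Xist* control, and 0 to 3 with 1 library left out. Between 15 and 3 weeks it was 1 (*Lgr5*, adjusted p = 0.0482) without the *Xist* control and 0 to 1 with a library left out, the 1 being *Ctnnb1* (0.0322) without WT 3 week replicate 3. The interaction and the comparison with 1 week gave 0 to 0. No called value reversed under these alternatives, of which those without the *Xist* control were chosen after seeing the data, and the causes were not tested.

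Quantile normalization moved the split of all genes higher and lower from 483 and 1745 to 1308 and 1491 after deletion from 1 day (median of all genes -0.11 to -0.00), from 101 and 485 to 430 and 457 from 3 weeks, from 2678 and 1041 to 1916 and 2151 with age (median 0.15 to -0.01), and from 260 and 339 to 740 and 986 for the interaction. With 1 library left out, calls over all genes fell to as few as 219 and 657 from 1 day (control replicate 3), 23 and 30 from 3 weeks (DKO replicate 2) and 16 and 14 for the interaction (DKO replicate 2 of 3 weeks).

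In WGBS 124 member tiles fell by 25 points and 28 by 50 points. RRBS calls from 1 day were 4 to 8 with a mouse left out, those from 3 weeks 0 to 1, with age 0 to 1 and in InsR KO 0 to 1. On the logit scale the calls of the 3 *Rnf43* tiles and of the *Axin2* tile chr11:108797801-108797900 (adjusted p = 0.112) were lost. With the peaks above the median score of each library, ATAC-Seq had 0 lost peaks at the members, HNF6 0, and 5hMeDIP-Seq 49 peaks. Requiring an overlap of 0.5 of the shorter peak gave 0 lost for ATAC-Seq, and leaving out a library gave 2 to 9 for ATAC-Seq and 1 to 3 for HNF6. No paired analysis was possible between groups because the columns carry animal numbers and not the replicate numbers of the labels. Those animal numbers do link RNA and RRBS columns, but RNA level and methylation were not compared mouse by mouse.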
